A study of Mus musculus with 15 samples.

Results

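The comparison described here is between 4T1 cells that received Twist1 S42A after Twist1 depletion and the depleted cells themselves. It rests on the 3 samples titled as the S42A line and the 3 titled as the depleted line (Tw1KD), 6 of the 15 arrays of the series. 4T1 is an established mouse mammary carcinoma line that metastasises. The lines used below were the S42A line, which is Tw1KD cells with compensatory expression of Twist1 S42A, the corresponding lines with wild-type Twist1 and with S42D, the Tw1KD line itself, depleted of endogenous Twist1, and parental 4T1 cells. Each line had 3 arrays. The title of the S42D samples names S42D while their genotype label names both substitutions. All lines were grown to 70% confluency under selection with puromycin (4 µg/ml) and G418 (800 µg/ml), per the labels' protocols. How Twist1 was depleted, how the constructs were introduced and whether a line came from 1 clone are not given in the sources used here. The S42A and Tw1KD lines differ in the construct and in any passage, selection or cloning that came with it, and these cannot be told apart with 1 line per construct.

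Twist1 is a basic helix-loop-helix transcription factor that binds E-box sequences. It is known for repressing the E-cadherin gene and for driving the epithelial-mesenchymal transition, in which epithelial cells lose their junctions and gain motility. Serine 42 of Twist1 is known as a site that the kinase Akt phosphorylates, and alanine at that place cannot be phosphorylated. The comparison therefore asks which transcripts differ when depleted cells regain a Twist1 that lacks this site.

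Levels below are log2 intensities, and a difference is the S42A mean minus the Tw1KD mean on the log2 scale, so that 1 unit is a 2-fold difference. An error after a difference is its standard error, an error after a level is a standard deviation over the 3 arrays of a line, and adjusted p-values come from limma with Benjamini-Hochberg adjustment over 19937 genes. A gene was called at an adjusted p under 0.05. The labels do not say whether the 3 samples of a line were separate cultures. Each p therefore measures only the spread between samples within lines, shared over all 5 lines of the fit. Across genes, arrays of 1 line correlated at 0.997 to 0.999, and S42A arrays correlated with Tw1KD arrays at 0.976 to 0.978. Of all genes, 25% averaged 5.51 or less over the 15 arrays. Near this dim end an array compresses differences, so a fold change against a dim level may understate the change.

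Twist1 itself read 8.60, 8.71 and 8.80 on the S42A arrays, against 7.47, 7.22 and 7.35 on the Tw1KD arrays. The arrays did not overlap, and the difference was 1.36 ± 0.080, adjusted p = 3.9e-09. The S42A line was above the wild-type Twist1 line by 0.37 ± 0.080 (adjusted p = 0.0016) and below the S42D line and parental cells, with differences of -0.29 ± 0.080 and -0.33 ± 0.080 (adjusted p = 0.0089 and 0.0038). Whether the probe set reads the introduced transcript, the endogenous one or both is not known here. The Twist1 signal differed between the returned lines as well as the residue, and its part in any difference between the returned lines was not tested.

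Of all 19937 genes, 8470 were called between S42A and Tw1KD cells, which is 42.5% of those tested. Called genes were higher in S42A cells in 4538 cases (22.8%) and lower in 3932 (19.7%). A call together with at least a 2-fold difference was found for 488 genes on the higher side (2.45%) and 477 on the lower side (2.39%). The arrays of the 2 lines did not overlap for 9325 genes (46.8%). The median difference over all genes was -0.01. In a bulk sample, fewer cells with a transcript and less of it per cell cannot be told apart. With so many genes called, a share of members near these percentages says nothing about a gene list, and the counts below are to be read against them. Lists are described by counts and medians, without a list test.

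**Figure D1:**
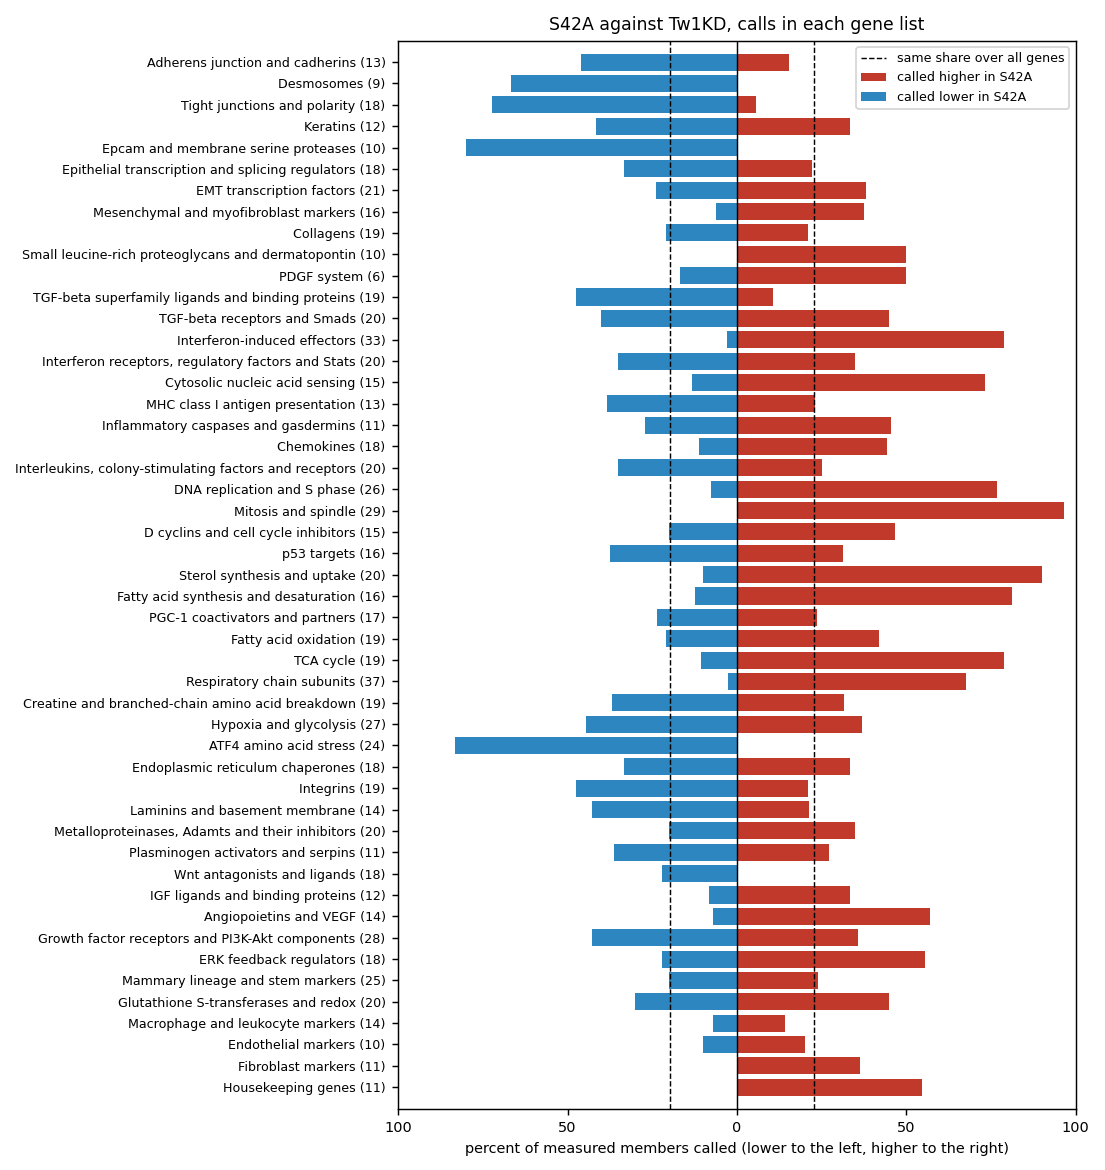
Share of the measured members of each of 49 gene lists (number measured in brackets) that were called higher (red, to the right) or lower (blue, to the left) in S42A than in Tw1KD cells, in percent. The dashed lines mark the shares over all genes, 22.8% higher and 19.7% lower; mitosis, sterol synthesis and fatty acid synthesis reach furthest to the right, and amino acid stress, membrane serine proteases, tight junctions and desmosomes furthest to the left.

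Genes of cell-cell junctions were lower in S42A cells, where 13 of 18 tight junction and polarity genes and 6 of 9 desmosome genes were called lower. The median difference was -1.03 for tight junctions and -0.85 for desmosomes. In the desmosome list no member was called higher, and in the tight junction list 1 was. Promoter windows of 3 of these genes are shown because the E-box form CAGGTG lay in most tight junction promoters and in that of Dsp. The Snail and Zeb repressors are known to bind this form, which reads CACCTG on the other strand. The windows are 300 bases long around the start site, 5′ to 3′ on the gene's strand, from RefSeq on GRCm38.p6, with that E-box in capitals.
Cldn4, chr5:134946885-134947184, minus strand: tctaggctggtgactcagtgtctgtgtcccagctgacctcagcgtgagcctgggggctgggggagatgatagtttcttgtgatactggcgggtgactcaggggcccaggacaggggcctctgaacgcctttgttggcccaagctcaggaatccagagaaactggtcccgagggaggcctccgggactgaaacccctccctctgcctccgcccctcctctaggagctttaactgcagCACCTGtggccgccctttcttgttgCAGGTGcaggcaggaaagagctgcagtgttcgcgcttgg
Cldn3, chr5:134985964-134986263, plus strand: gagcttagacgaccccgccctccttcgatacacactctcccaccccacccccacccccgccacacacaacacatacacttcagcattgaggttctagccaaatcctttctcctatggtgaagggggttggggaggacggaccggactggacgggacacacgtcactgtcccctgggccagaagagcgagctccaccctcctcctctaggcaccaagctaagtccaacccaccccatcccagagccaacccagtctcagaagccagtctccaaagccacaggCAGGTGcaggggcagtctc
Dsp, chr13:38151044-38151343, plus strand: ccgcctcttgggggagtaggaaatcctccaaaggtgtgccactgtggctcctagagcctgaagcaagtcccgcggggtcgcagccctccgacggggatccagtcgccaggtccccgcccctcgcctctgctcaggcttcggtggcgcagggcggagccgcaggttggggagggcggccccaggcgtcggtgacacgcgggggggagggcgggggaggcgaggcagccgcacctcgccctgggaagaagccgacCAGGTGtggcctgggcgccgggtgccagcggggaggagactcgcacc

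The CAGGTG form, searched on both strands, was found in 10 of the 11 tight junction genes that were called lower and had a promoter in the table, and in 11 of the 14 members with a promoter whatever their call. It was found in 22.2% of the 15613 promoters of measured genes. In the adherens junction list it was found in 1 of 6 members with a promoter. Dsp was the 1 desmosome gene with a promoter. The general E-box CANNTG, which includes the CAGGTG form, was found in 11 of those 11 tight junction promoters and in 71.5% of all. The form CAGATG was found in 0 of the 11 and in 16.1% of all, counting its reading on the other strand, CATCTG. These are matches of letters in a window and show no binding.

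Claudins seal the space between neighbouring epithelial cells. Cldn4, whose promoter held 2 CAGGTG-form E-boxes, read 7.50, 7.25 and 7.17 on the S42A arrays, against 12.64, 12.58 and 12.63 on the Tw1KD arrays, a difference of -5.31 ± 0.12, adjusted p = 2.5e-13. Cldn3 read 8.13, 7.93 and 7.56 on the S42A arrays, against 10.28, 10.19 and 10.31 on the Tw1KD arrays, a difference of -2.39 ± 0.10, adjusted p = 1.7e-10. Every S42A array lay below every Tw1KD array for both claudins. Marveld2 (tricellulin), which seals the corners where 3 cells meet, read 5.48, 5.33 and 5.41 on the S42A arrays, against 8.71, 8.59 and 8.70 on the Tw1KD arrays, a difference of -3.26 ± 0.072, adjusted p = 1.5e-13. Ocln (occludin), a related membrane protein of tight junctions, had a difference of -2.12 ± 0.078, adjusted p = 2.5e-11. Cxadr, a junctional adhesion protein, was the 1 member called higher, with a difference of 0.42 ± 0.039, adjusted p = 4.2e-07.

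Desmosomes tie the keratin filaments of neighbouring cells together. The plaque protein Dsp (desmoplakin), shown above, read 6.11, 5.88 and 6.03 on the S42A arrays, against 10.62, 10.79 and 10.74 on the Tw1KD arrays, a difference of -4.71 ± 0.087, adjusted p = 2.7e-14. Perp, a membrane protein of desmosomes, read 5.20, 5.30 and 5.03 on the S42A arrays, against 10.59, 10.29 and 10.41 on the Tw1KD arrays, a difference of -5.25 ± 0.091, adjusted p = 1.4e-14. The cadherin Dsg2 (desmoglein) read 5.57, 5.49 and 5.58 on the S42A arrays, against 9.38, 9.23 and 9.33 on the Tw1KD arrays, a difference of -3.77 ± 0.10, adjusted p = 1.1e-12. For all 3 genes the S42A values were close to or in the dim range and the Tw1KD values were high. The plakophilins Pkp2 and Pkp3, plaque proteins of the armadillo family, differed less, by -1.20 ± 0.056 and -0.85 ± 0.049 (adjusted p = 3.3e-10 and 2.9e-09). Dsc2 and Evpl were not called, with differences of -0.01 and 0.05.

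The adherens junction list was mixed, with 2 of 13 members higher, 6 lower and a median of -0.04. Cdh1 (E-cadherin) read 6.41, 6.26 and 6.33 on the S42A arrays, against 11.45, 11.46 and 11.46 on the Tw1KD arrays, a difference of -5.12 ± 0.045, adjusted p = 3.3e-17, or 34.8-fold lower in S42A cells. Jup (plakoglobin), which links cadherins to the cytoskeleton in both kinds of junction, read 10.95, 10.94 and 11.06 on the S42A arrays, against 12.33, 12.37 and 12.32 on the Tw1KD arrays, a difference of -1.35 ± 0.040, adjusted p = 2.9e-12. Nectin2, Afdn and Ctnna1, which are adherens junction proteins, differed by -0.38, -0.27 and -0.21. Cdh2 (N-cadherin), the cadherin that often replaces E-cadherin in the transition, was dim in both lines at 4.59 ± 0.046 in S42A cells and 4.50 ± 0.14 in Tw1KD cells, and was not called (difference 0.09). It was called without Tw1KD replicate 2 (0.18), with array weights (0.17) and after quantile normalization (0.17).

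**Figure D2:**
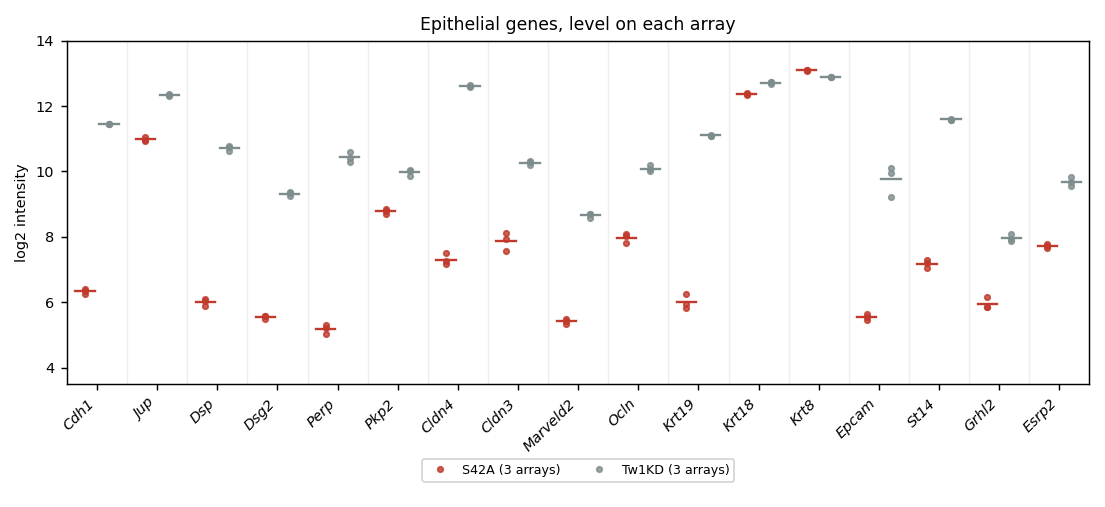
Level of 17 epithelial genes (log2 intensity) on each array of the S42A line (red, left) and the Tw1KD line (grey, right); points are arrays and bars are means over 3. The gap is widest for Cldn4, Perp and Cdh1, with differences of -5.31, -5.25 and -5.12, while Krt8 and Krt18 stay high in both lines.

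Among 12 keratins, the filament proteins of epithelial cells, 4 were called higher and 5 lower, with a median of -0.14. Krt19 read 6.24, 5.96 and 5.83 on the S42A arrays, against 11.08, 11.12 and 11.10 on the Tw1KD arrays, a difference of -5.09 ± 0.081, adjusted p = 6e-15. The main simple-epithelial pair stayed high: Krt8 averaged 13.09 ± 0.016 in S42A cells and 12.89 ± 0.011 in Tw1KD cells, and Krt18 12.38 ± 0.027 in S42A cells and 12.71 ± 0.043 in Tw1KD cells. Their differences were small and opposite, at 0.20 ± 0.034 and -0.34 ± 0.041. Krt80 and Krt7 were lower, with differences of -1.01 ± 0.045 and -0.69 ± 0.056, and Krt23 was higher by 1.23 ± 0.12 (adjusted p = 1.7e-10, 1.2e-07 and 6.4e-07).

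The list of Epcam and membrane serine proteases of epithelial surfaces had 8 of 10 members called lower and none higher, with a median of -1.13. It also holds the protease inhibitors Spint1 and Spint2 and the membrane protein Cdcp1, all called lower. The membrane-anchored proteases Tmprss2 and Tmprss4 were the 2 members not called, with differences of 0.04 and 0.10. Epcam, an epithelial surface adhesion protein, read 5.47, 5.64 and 5.54 on the S42A arrays, against 9.95, 9.22 and 10.10 on the Tw1KD arrays, a difference of -4.21 ± 0.21, adjusted p = 7.3e-10. St14 (matriptase) read 7.20, 7.28 and 7.05 on the S42A arrays, against 11.61, 11.59 and 11.58 on the Tw1KD arrays, a difference of -4.41 ± 0.060, adjusted p = 1.8e-15. The S42A arrays lay more than 3 log2 units below the Tw1KD arrays in both genes. The secreted or membrane-bound proteases Klk10 and Prss22 had differences of -3.78 ± 0.051 and -3.31 ± 0.059 (adjusted p = 1.8e-15 and 1.9e-14).

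Among 18 regulators of epithelial transcription and splicing, 6 were called lower and 4 higher. Grhl2, a grainyhead factor that activates junction genes, read 5.86, 5.84 and 6.15 on the S42A arrays, against 7.89, 7.93 and 8.09 on the Tw1KD arrays, a difference of -2.02 ± 0.086, adjusted p = 1.3e-10. Esrp2, a splicing factor that sets epithelial isoforms, read 7.67, 7.72 and 7.77 on the S42A arrays, against 9.69, 9.57 and 9.82 on the Tw1KD arrays, a difference of -1.97 ± 0.064, adjusted p = 6.5e-12. Neither gene overlapped between the lines. Foxa1, a pioneer factor of luminal cells, and Ovol1, a zinc finger repressor of mesenchymal genes, had differences of -1.63 ± 0.083 and -1.48 ± 0.10 (adjusted p = 8.6e-10 and 1.3e-08). Gata3 and Tfap2c, luminal transcription factors, were higher by 0.96 ± 0.036 and 0.51 ± 0.092 (adjusted p = 3.3e-11 and 0.00035).

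Against parental cells, 13 of the 18 tight junction genes were lower in S42A cells and 2 higher, with a median difference of -0.35 (17.7% of all genes called lower and 22.6% higher). Of all calls against parental cells 56.1% were on the higher side, and 72.8% with each array centred on its median, so counts against parental cells lean on the scaling. Against the wild-type Twist1 line the same list was split, with 6 higher and 5 lower and a median of -0.01 (20.0% of all genes called in each direction). Against the S42D line 1 was higher, 5 were lower and 12 were not called, with a median of 0.02. Over all genes 19.1% were called higher and 17.1% lower than in S42D. Individual members still differed from the wild-type line. Cldn4 was at 7.30 ± 0.17 in S42A cells and 9.76 ± 0.020 in the wild-type line, a difference of -2.46 ± 0.12, adjusted p = 1.3e-09. Cdh1, Krt19 and Dsp were also lower in S42A than in wild-type cells, with differences of -2.18 ± 0.045, -2.73 ± 0.081 and -2.33 ± 0.087 (adjusted p = 1.4e-13, 5.7e-12 and 6.3e-11). Epcam differed from the wild-type line by -0.11 ± 0.21 (adjusted p = 0.73), with both lines dim. From the S42D line Cldn4 and Epcam differed by 0.15 and -0.08 and were not called (adjusted p = 0.42 and 0.83). Cdh1, Krt19 and Dsp were lower than in S42D, with differences of -1.17, -2.62 and -0.48.

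The transcription factors of the epithelial-mesenchymal transition moved less than the junction genes. Of 21, 8 were called higher and 5 lower (3 with median centring), Twist1 among the first, with a median of 0.07. Zeb2, a zinc finger repressor of E-cadherin, read 10.07, 10.09 and 10.07 on the S42A arrays, against 9.47, 9.36 and 9.54 on the Tw1KD arrays, a difference of 0.62 ± 0.046, adjusted p = 4.8e-08. Snai1 (Snail) read 10.33, 10.32 and 10.40 on the S42A arrays, against 9.94, 9.99 and 9.81 on the Tw1KD arrays, a difference of 0.44 ± 0.054, adjusted p = 9.4e-06. Both genes had high levels in both lines and no overlap between them. Snai2 and Zeb1 were dim in both lines and not called, with levels of 4.52 ± 0.079 and 5.34 ± 0.021 in S42A cells and 4.57 ± 0.10 and 5.41 ± 0.086 in Tw1KD cells. The inhibitory helix-loop-helix proteins Id2 and Id4, which bind E proteins such as the partners of Twist1, were higher by 1.17 ± 0.053 and 0.82 ± 0.076 (adjusted p = 2.4e-10 and 4.5e-07). Id3 was not called (0.01), and Id1 was called lower, though not with median centring. The 5 called lower were Foxc2 (-0.57), Tcf12 (-0.37), Hmga2 (-0.31), Id1 (-0.21) and Snai3 (-0.16).

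Mesenchymal and myofibroblast markers had 6 of 16 members called higher and 1 lower, with a median of 0.03. Sparc, a matricellular protein, and Acta2 (smooth muscle actin) were higher by 0.96 ± 0.033 and 0.66 ± 0.058 (adjusted p = 1.1e-11 and 2.5e-07). Vim (vimentin) was high and close in both lines, at 13.49 ± 0.0052 in S42A cells and 13.46 ± 0.012 in Tw1KD cells, and was not called (difference 0.03, adjusted p = 0.49), though quantile normalization gave a called difference of 0.09. Fn1 (fibronectin) was high in both lines and lower in S42A cells, with a difference of -0.39 ± 0.037 (adjusted p = 6.5e-07).

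Matrix genes were looked at by family. Of 10 small leucine-rich proteoglycans with dermatopontin, 5 were called higher and none lower (median 0.20), beside 22.8% and 19.7% of all genes. Dpt (dermatopontin), which binds collagen, read 8.71, 8.75 and 8.93 on the S42A arrays, against 4.61, 4.88 and 4.51 on the Tw1KD arrays, a difference of 4.13 ± 0.12, adjusted p = 2.3e-12. Ogn (osteoglycin) read 6.64, 6.95 and 7.07 on the S42A arrays, against 5.17, 5.33 and 5.53 on the Tw1KD arrays, a difference of 1.54 ± 0.11, adjusted p = 3.4e-08. The Tw1KD values of Dpt were in the dim range. Of 19 collagens, 4 were called higher and 4 lower, which is near the shares of all genes. The fibrillar Col1a1 and Col3a1 were not called, and Col6a1 was higher by 2.17 ± 0.056 (adjusted p = 6.2e-13).

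Among laminins and other basement membrane genes, 6 of 14 were called lower and 3 higher. Lamb3, a chain of the laminin that anchors epithelia, read 6.98, 6.85 and 6.78 on the S42A arrays, against 9.63, 9.62 and 9.82 on the Tw1KD arrays, a difference of -2.82 ± 0.060, adjusted p = 1.1e-13. Bcam, a laminin receptor, read 6.69, 6.73 and 6.59 on the S42A arrays, against 9.21, 9.04 and 9.17 on the Tw1KD arrays, a difference of -2.47 ± 0.10, adjusted p = 4.7e-11. Integrins, which hold cells to matrix, had 9 of 19 members lower and 4 higher. Itga2, a collagen receptor chain, read 7.67, 8.01 and 8.02 on the S42A arrays, against 10.70, 10.72 and 10.76 on the Tw1KD arrays, a difference of -2.83 ± 0.090, adjusted p = 5.9e-12. Itgb2, Itgb6 and Itgb7 were lower, with differences of -2.04 ± 0.049, -1.40 ± 0.077 and -1.28 ± 0.067, and Itga8 and Itga1 were higher by 1.39 ± 0.069 and 0.98 ± 0.072 (adjusted p between 2.9e-13 and 4.1e-08).

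Among metalloproteinases, Adamts proteases and their inhibitors, 7 of 20 were called higher and 4 lower. The stromelysin Mmp3 read 12.17, 12.18 and 12.08 on the S42A arrays, against 9.27, 8.99 and 8.91 on the Tw1KD arrays, a difference of 3.09 ± 0.072, adjusted p = 2.5e-13. The gelatinase Mmp9 read 7.10, 7.19 and 7.35 on the S42A arrays, against 10.94, 11.01 and 10.94 on the Tw1KD arrays, a difference of -3.75 ± 0.057, adjusted p = 4.3e-15. These 2 matrix proteases moved in opposite directions, each without overlap of the lines. Timp1, a secreted inhibitor of metalloproteinases, was lower, with a difference of -1.01 ± 0.049. The plasminogen activators also split, with Plat higher by 1.13 ± 0.091 and Plau lower, with a difference of -1.60 ± 0.050 (adjusted p = 1.1e-07 and 5.1e-12). Serpinb5 (maspin), known from mammary epithelium, was lower, with a difference of -2.42 ± 0.11 (adjusted p = 1.9e-10).

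Secreted signals and their receptors included several of the widest differences. Of 14 genes of the angiopoietin and vascular endothelial growth factor (VEGF) families, 8 were called higher and 1 lower, with a median of 0.25. Angpt1, a ligand of the Tie2 receptor, read 10.21, 10.23 and 10.27 on the S42A arrays, against 5.77, 5.68 and 6.15 on the Tw1KD arrays, a difference of 4.37 ± 0.091, adjusted p = 9.1e-14. Nrp1 (neuropilin), a co-receptor for VEGF and semaphorins, read 10.04, 10.08 and 10.04 on the S42A arrays, against 6.76, 6.85 and 6.98 on the Tw1KD arrays, a difference of 3.19 ± 0.051, adjusted p = 6e-15. Vegfc, a lymphatic growth factor, read 9.01, 9.04 and 9.10 on the S42A arrays, against 6.31, 6.52 and 6.70 on the Tw1KD arrays, a difference of 2.54 ± 0.086, adjusted p = 1.1e-11. In these 3 genes every S42A array was higher than every Tw1KD array. Flt1, a VEGF receptor, was higher by 1.75 ± 0.081 (adjusted p = 3e-10).

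In the PDGF system, 3 of 6 genes were called higher and 1 lower. The lower gene, the ligand Pdgfb (-0.12), was not called with median centring, with the 2 lines alone, or without S42A replicate 1, S42A replicate 2 or Tw1KD replicate 3. The ligand Pdgfc read 8.60, 8.67 and 8.62 on the S42A arrays, against 6.50, 6.58 and 6.36 on the Tw1KD arrays, a difference of 2.15 ± 0.073, adjusted p = 1.1e-11. The receptor Pdgfra read 10.82, 10.88 and 10.84 on the S42A arrays, against 9.62, 9.60 and 9.58 on the Tw1KD arrays, a difference of 1.25 ± 0.043, adjusted p = 1.2e-11, and Pdgfrb was higher by 0.50 ± 0.076 (adjusted p = 6.7e-05). Against the S42D line both receptors were lower in S42A cells, with differences of -0.53 ± 0.043 for Pdgfra and -3.70 ± 0.076 for Pdgfrb (adjusted p = 1.8e-07 and 7.8e-14).

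Of 19 TGF-beta superfamily ligands and binding proteins, 2 were called higher and 9 lower (median -0.07). The 2 were the ligand Tgfb2, with a difference of 1.75 ± 0.090, adjusted p = 8.5e-10, and Inhba, the activin subunit, with 1.42 ± 0.10, adjusted p = 2.3e-08. Bmp7, a bone morphogenetic protein expressed in epithelia, read 7.08, 7.17 and 7.12 on the S42A arrays, against 10.27, 10.15 and 10.19 on the Tw1KD arrays, a difference of -3.08 ± 0.049, adjusted p = 6e-15. Ltbp2, related to the latent TGF-beta binding proteins, and Fstl3, an activin antagonist, were lower, with differences of -1.25 ± 0.049 and -1.17 ± 0.037 (adjusted p = 5.6e-11 and 5.2e-12). Receptors and Smads, the intracellular mediators, were split at 9 higher and 8 lower of 20 (5 lower with median centring or the 2 lines alone), all by less than 1 log2 unit.

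Among IGF genes Igfbp7, an IGF-binding protein, read 11.54, 11.59 and 11.59 on the S42A arrays, against 9.01, 8.55 and 8.98 on the Tw1KD arrays, a difference of 2.73 ± 0.087, adjusted p = 5.9e-12. Irs1, the adaptor of insulin and IGF receptors, was higher by 1.78 ± 0.061 (adjusted p = 1.2e-11). A second probe set of Irs1 was dim in both lines, with a difference of 0.25. Of 28 growth factor receptors and PI3K-Akt components, 10 were called higher and 12 lower. Pik3r3, a regulatory subunit of PI3-kinase, read 7.78, 8.06 and 7.81 on the S42A arrays, against 5.49, 5.50 and 5.71 on the Tw1KD arrays, a difference of 2.32 ± 0.085, adjusted p = 2.7e-11. Erbb3, a receptor that recruits PI3-kinase, and Inpp4b, a lipid phosphatase that limits it, were lower, with differences of -1.91 ± 0.086 and -1.68 ± 0.12 (adjusted p = 2.3e-10 and 4.1e-08). Of 18 Wnt ligands, antagonists and downstream factors none was called higher and 4 lower, beside 22.8% and 19.7% of all genes. The 4 were Wnt7a, Wnt10a, Wnt7b and the transcription factor Tcf7l2, and no antagonist was called. The epithelial ligand Wnt7a had a difference of -3.53 ± 0.091 (adjusted p = 6.4e-13). Wnt7b (-0.12) was not called with median centring, with the 2 lines alone and in several other settings.

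Interferon-induced genes formed one of the groups in which S42A cells were higher, also against the other returned lines. These genes are switched on by type I and type II interferons through Stat and Irf factors and carry out antiviral defence. Of 33 measured effectors, 26 were called higher than in Tw1KD cells and 1 lower, with a median of 1.11, and 17 were higher by at least 2-fold. Against the wild-type Twist1 line, 32 of the 33 were called higher and none lower, with a median of 1.38 beside 0.04 over all genes, where 20.0% of all genes were called higher. The wild-type line itself lay below Tw1KD cells for these effectors, with a median difference of -0.39. Against the S42D line 26 were called higher and 3 lower, with a median of 0.53 beside 0.03 over all genes, where 19.1% were called higher. Against parental cells 28 were higher and 1 lower, with a median of 1.03 beside 22.6% of all genes called higher.

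The core of the interferon-stimulated response element, written here as GAAANNGAAA, or TTTCNNTTTC on the other strand, lay in the promoter windows of 11 of the 18 effectors called higher that had one in the table. It was found in 13 of 24 members whatever their call and in 3.9% of all 15613 promoters. The windows of Ifit1 and Ifit3 are shown because both genes are among the effectors with the widest differences and each held 2 such cores, given in capitals (300 bases, RefSeq on GRCm38.p6).
Ifit1, chr19:34640639-34640938, plus strand: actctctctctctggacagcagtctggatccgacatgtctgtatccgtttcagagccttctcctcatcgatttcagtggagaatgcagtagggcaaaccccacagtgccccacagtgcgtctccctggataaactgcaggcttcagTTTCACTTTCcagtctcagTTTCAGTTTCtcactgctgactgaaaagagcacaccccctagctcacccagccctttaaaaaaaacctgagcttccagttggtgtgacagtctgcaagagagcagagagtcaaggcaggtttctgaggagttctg
Ifit3, chr19:34583279-34583578, plus strand: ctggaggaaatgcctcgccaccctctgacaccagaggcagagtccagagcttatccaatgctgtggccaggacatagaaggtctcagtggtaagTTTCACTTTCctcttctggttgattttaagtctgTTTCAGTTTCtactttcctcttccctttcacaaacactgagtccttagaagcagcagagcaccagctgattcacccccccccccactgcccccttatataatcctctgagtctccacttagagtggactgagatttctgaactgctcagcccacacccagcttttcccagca

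Ifit1, which binds viral RNA, read 9.32, 9.55 and 9.40 on the S42A arrays, against 6.86, 6.46 and 6.76 on the Tw1KD arrays, a difference of 2.73 ± 0.10, adjusted p = 2.8e-11. Ifit3, a partner of Ifit1, read 7.63, 7.64 and 7.71 on the S42A arrays, against 5.12, 4.97 and 4.88 on the Tw1KD arrays, a difference of 2.67 ± 0.059, adjusted p = 1.5e-13; it has a near-identical neighbour whose signal the probe set may share. Both genes were fully separated between the lines. Ifit1 was at 6.76 ± 0.15 in the wild-type Twist1 line, 7.30 ± 0.10 in the S42D line and 6.22 ± 0.056 in parental cells, all well below the S42A level. Its difference was 2.66 ± 0.10, adjusted p = 7.3e-11 against the wild-type line and 2.13 ± 0.10, adjusted p = 6.8e-10 against S42D. Ifit2, in the same family, differed by 3.42 ± 0.085 from Tw1KD cells and by -0.40 ± 0.085 from the S42D line, so that S42D was the higher of these 2 returned lines (adjusted p = 4.1e-13 and 0.0016).

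Usp18, the protease that removes Isg15 and dampens interferon signalling, read 10.42, 10.59 and 10.51 on the S42A arrays, against 7.97, 7.82 and 7.97 on the Tw1KD arrays, a difference of 2.59 ± 0.069, adjusted p = 9.5e-13. Cmpk2, a mitochondrial nucleotide kinase induced by interferon, read 8.24, 8.30 and 8.25 on the S42A arrays, against 5.62, 5.69 and 5.61 on the Tw1KD arrays, a difference of 2.62 ± 0.060, adjusted p = 2e-13. Cmpk2 was between 5.14 and 5.64 on average in the 4 other lines, near the dim end, and above 8 in S42A cells alone. Its differences were 3.12 ± 0.060 against the wild-type line and 3.04 ± 0.060 against S42D (adjusted p = 8.5e-14 and 5.3e-14). Isg20, an exonuclease, was the 1 effector called lower, with a difference of -1.18 ± 0.049, adjusted p = 9.6e-11.

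**Figure D3:**
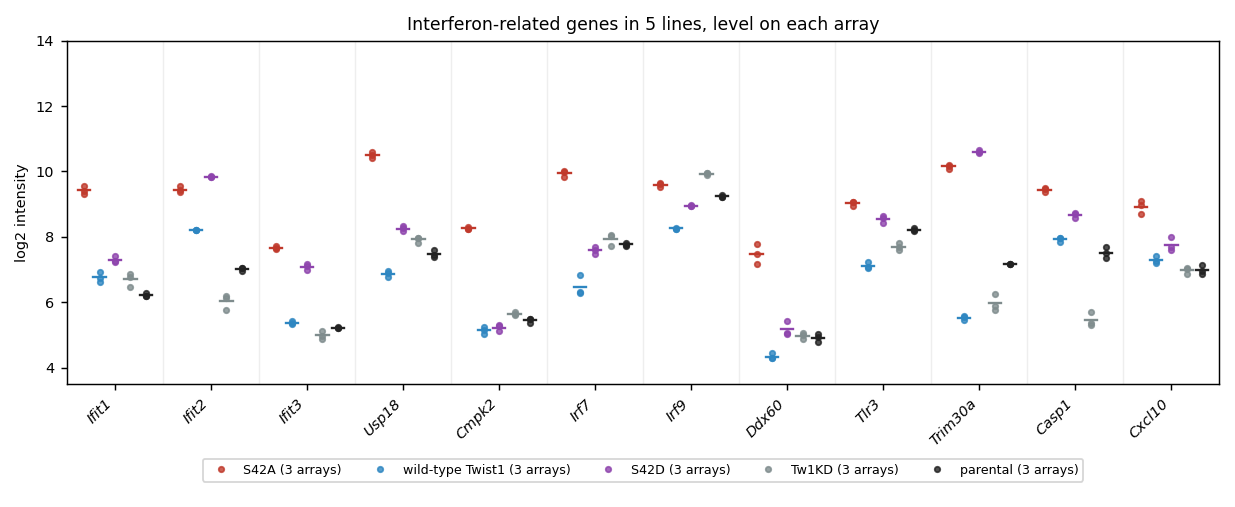
Level of 12 interferon-related genes (log2 intensity) on each array of the S42A (red), wild-type Twist1 (blue), S42D (purple), Tw1KD (grey) and parental (black) lines, from left to right for each gene; points are arrays and bars are means over 3. S42A cells stand above all other lines for Ifit1, Usp18, Cmpk2, Irf7 and Ddx60, while Ifit2 and Trim30a are also high in S42D cells and Irf9 is highest in Tw1KD cells.

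The machinery upstream of these effectors did not move as a whole against Tw1KD cells. Of 20 interferon receptors, regulatory factors and Stats, 7 were called higher and 7 lower, with a median of -0.03. Irf7, the factor that amplifies interferon production, read 9.83, 9.97 and 10.01 on the S42A arrays, against 8.07, 7.72 and 8.01 on the Tw1KD arrays, a difference of 2.0 ± 0.13, adjusted p = 1.1e-08. Irf9, an interferon regulatory factor, read 9.52, 9.64 and 9.62 on the S42A arrays, against 9.94, 9.89 and 9.96 on the Tw1KD arrays, a difference of -0.34 ± 0.040, adjusted p = 6.4e-06, and Irf5 was lower, with a difference of -1.79 ± 0.077 (adjusted p = 1.3e-10). The interferon gamma receptor chain Ifngr1 was lower, with a difference of -0.37 ± 0.081 (adjusted p = 0.0018). Irf7 was thus higher and Irf9 lower than in Tw1KD cells. Against the wild-type Twist1 line 14 of the 20 were called higher and 3 lower, with a median of 0.23. Irf9 was among those higher, by 1.34 (adjusted p = 6.4e-12), where 20.0% of all genes were called higher. The wild-type line itself lay below Tw1KD cells for this list, with a median difference of -0.39.

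Of 15 genes that sense nucleic acids in the cell, 11 were called higher and 2 lower, with a median of 0.34. Ddx60, a helicase linked to RNA sensing, read 7.16, 7.49 and 7.77 on the S42A arrays, against 4.99, 4.88 and 5.05 on the Tw1KD arrays, a difference of 2.50 ± 0.14, adjusted p = 1.6e-09. The 3 S42A arrays of Ddx60 were spread over more than 0.5 log2 units but stayed above all Tw1KD arrays. Tlr3, the receptor for double-stranded RNA, and Aim2, a sensor of cytosolic DNA, were higher by 1.32 ± 0.066 and 1.29 ± 0.10 (adjusted p = 7e-10 and 9.9e-08). Sting1, the adaptor of cytosolic DNA sensing, was higher by 0.86 ± 0.034 (adjusted p = 6e-11), and Tlr2, a receptor for bacterial lipoproteins, was lower, with a difference of -1.43 ± 0.13 (adjusted p = 3.3e-07).

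The class I antigen presentation genes, which interferons also induce, did not follow the effectors against Tw1KD cells. Of 13, 3 were called higher and 5 lower, with a median of 0.00. With each array centred on its median 5 were called higher and 3 lower, and 5 were called higher with array weights or without the dimmest 25% of genes. Psmb8, an immunoproteasome subunit, was higher by 1.56 ± 0.12 (adjusted p = 7.1e-08) and Psme1, a subunit of the proteasome activator, was lower, with a difference of -0.69 ± 0.062 (adjusted p = 3.4e-07). B2m, the light chain of class I molecules, was not called and differed by less than 0.01. In the comparison with the wild-type Twist1 line, however, 11 of the 13 were higher in S42A cells and none lower, with a median of 0.65 (20.0% of all genes called higher). The wild-type line itself lay below Tw1KD cells for this list, with a median difference of -0.65.

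Of 11 inflammatory caspases and gasdermins, 5 were called higher and 3 lower. The 3 were 1, Il18, with median centring, with the 2 lines alone, and without S42A replicate 1 or S42A replicate 3, where Casp8 and Nlrp3 lost their calls. Casp1, which processes interleukin-1 beta, read 9.37, 9.46 and 9.48 on the S42A arrays, against 5.37, 5.30 and 5.68 on the Tw1KD arrays, a difference of 3.99 ± 0.10, adjusted p = 3.6e-13. Casp12 read 10.17, 10.18 and 10.17 on the S42A arrays, against 6.44, 5.98 and 6.68 on the Tw1KD arrays, a difference of 3.80 ± 0.12, adjusted p = 4.5e-12, and Casp4 (caspase-11 in the mouse) was higher by 1.97 ± 0.085 (adjusted p = 1.4e-10). Il18, a substrate of caspase-1, was lower, with a difference of -0.86 ± 0.13 (adjusted p = 5.4e-05). The Tw1KD level of Casp1 was in the dim range.

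Among 18 chemokines, 8 were called higher and 2 lower, with a median of 0.25. Ccl2, which attracts monocytes, read 9.17, 9.14 and 9.30 on the S42A arrays, against 6.57, 7.45 and 6.77 on the Tw1KD arrays, a difference of 2.28 ± 0.15, adjusted p = 1.9e-08. Cxcl10, which is induced by interferons and attracts T cells, read 8.71, 8.97 and 9.09 on the S42A arrays, against 6.86, 7.04 and 7.02 on the Tw1KD arrays, a difference of 1.95 ± 0.11, adjusted p = 3.7e-09. Cxcl16, a membrane-bound chemokine, went the other way and read 6.31, 5.99 and 5.74 on the S42A arrays, against 10.61, 10.36 and 10.53 on the Tw1KD arrays, a difference of -4.49 ± 0.11, adjusted p = 2.9e-13. No chemokine of these 3 overlapped between the lines.

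Of 20 interleukins, colony-stimulating factors and their receptors, 5 were called higher and 7 lower. Csf2rb, the common beta chain of the GM-CSF receptor family, read 10.82, 10.84 and 10.83 on the S42A arrays, against 7.74, 7.59 and 7.80 on the Tw1KD arrays, a difference of 3.12 ± 0.10, adjusted p = 5.2e-12; the mouse has a closely related copy of this gene, which the probe set may share. Il24 read 5.47, 5.57 and 5.39 on the S42A arrays, against 9.56, 9.69 and 9.73 on the Tw1KD arrays, a difference of -4.19 ± 0.10, adjusted p = 2.9e-13. Il23a and Lif, cytokines of inflammation and of the interleukin-6 family, were lower, with differences of -2.56 ± 0.056 and -1.79 ± 0.078 (adjusted p = 1.2e-13 and 1.6e-10). Il15, which sustains natural killer cells, was higher by 1.22 ± 0.12 (adjusted p = 1.3e-06).

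Markers of other cell types were looked at beside these immune genes. Of 14 macrophage and leukocyte markers, 2 were called higher and 1 lower, with summed levels (log2 of the summed intensities) of 11.002 to 11.059 in S42A arrays and 11.133 to 11.237 in Tw1KD arrays. The 2 were Lyz2 (lysozyme), at 5.74 ± 0.21 in S42A cells and 4.86 ± 0.28 in Tw1KD cells, and Cd53, a leukocyte tetraspanin, which was dim in both and was not called without Tw1KD replicate 1 (0.25). The pan-leukocyte marker Ptprc was not called (difference 0.10), nor were Adgre1 (0.00) or Spi1 (-0.01). Of 10 endothelial markers 2 were called higher and 1 lower, with Pecam1 not called (-0.02) and Cdh5 higher by 1.27 ± 0.087 (adjusted p = 1.9e-08); summed levels were 11.59 to 11.65 in S42A arrays and 11.10 to 11.15 in Tw1KD arrays. Of 11 fibroblast markers 4 were called higher and none lower, led by Dpt and Pdgfra, with summed levels of 11.61 to 11.64 in S42A arrays and 10.60 to 10.75 in Tw1KD arrays. The part of other cells in the results was not tested.

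Genes of cell division were higher in S42A cells. Of 29 mitosis and spindle genes, 28 were called higher and none lower, with a median of 0.87, and 12 were higher by at least 2-fold. The cell-cycle homology region (CHR) element TTTGAA, with TTCAAA on the other strand, is known from promoters of late cell cycle genes. It lay in the windows of 18 of the 23 genes called higher that had one in the table, in 19 of 24 members whatever their call and in 17.3% of all 15613 promoters. The windows of the kinetochore gene Cenpf and the motor gene Kif4 are shown as 2 examples, with the CHR element in capitals (300 bases, RefSeq on GRCm38.p6).
Cenpf, chr1:189688037-189688336, minus strand: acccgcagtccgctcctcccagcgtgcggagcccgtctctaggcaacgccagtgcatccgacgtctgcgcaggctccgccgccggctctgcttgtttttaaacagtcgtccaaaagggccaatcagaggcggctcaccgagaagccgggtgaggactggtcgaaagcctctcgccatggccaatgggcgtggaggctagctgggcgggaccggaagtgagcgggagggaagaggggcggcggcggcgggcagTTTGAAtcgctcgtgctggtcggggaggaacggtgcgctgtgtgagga
Kif4, chrX:100625815-100626114, plus strand: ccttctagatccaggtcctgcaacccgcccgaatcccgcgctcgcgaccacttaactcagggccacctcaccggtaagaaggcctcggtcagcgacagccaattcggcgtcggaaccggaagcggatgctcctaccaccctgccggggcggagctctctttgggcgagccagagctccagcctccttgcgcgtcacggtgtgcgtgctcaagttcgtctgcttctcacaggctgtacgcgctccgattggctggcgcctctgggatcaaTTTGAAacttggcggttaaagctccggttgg

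Cenpf read 10.43, 10.42 and 10.40 on the S42A arrays, against 9.07, 9.05 and 9.20 on the Tw1KD arrays, a difference of 1.31 ± 0.058, adjusted p = 1.7e-10. Kif4, a kinesin that binds chromosomes, read 9.79, 9.98 and 10.00 on the S42A arrays, against 8.72, 8.36 and 8.90 on the Tw1KD arrays, a difference of 1.27 ± 0.12, adjusted p = 4e-07. Kif20a, a kinesin needed for the final separation of cells, read 11.47, 11.42 and 11.38 on the S42A arrays, against 9.70, 9.56 and 9.72 on the Tw1KD arrays, a difference of 1.77 ± 0.047, adjusted p = 9.5e-13. Every S42A array was above every Tw1KD array in all 3 genes. Of 26 DNA replication and S phase genes, 20 were called higher and 2 lower, with a median of 0.50. Tyms, which makes thymidylate, and Ccne1 (cyclin E), which starts S phase, were higher by 1.59 ± 0.049 and 1.34 ± 0.053 (adjusted p = 3.8e-12 and 5.5e-11). Cdt1, a replication licensing factor, was lower, with a difference of -0.48 ± 0.037 (adjusted p = 5.8e-08).

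Compared with the wild-type Twist1 line, mitosis genes were split at 8 higher and 9 lower of 29 (median -0.03) and replication genes were mostly lower, with 4 higher and 17 lower of 26 (median -0.22, beside 20.0% of all genes called lower). Against parental cells all 29 mitosis genes and all 26 replication genes were called higher, with medians of 0.71 and 0.69 (22.6% of all genes called higher). Against S42D, 23 mitosis genes were called higher and none lower (median 0.23), and 13 replication genes higher and 2 lower (median 0.18, beside 19.1% and 17.1% of all genes). The cells were harvested at the same stated confluency, and the part of growth rate or density in these values was not tested. Among D cyclins and cell cycle inhibitors 7 of 15 were called higher and 3 lower, including the inhibitors Cdkn2d and Cdkn2c, higher by 1.09 ± 0.079 and 0.88 ± 0.049, and Rb1, lower, with a difference of -0.76 ± 0.049 (adjusted p = 3.5e-08, 1.9e-09 and 1.1e-08).

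Sterol synthesis genes were higher almost throughout. This pathway makes cholesterol from acetyl-CoA and is driven by the factor Srebf2. Of 20 genes, 18 were called higher and 2 lower, with a median of 1.11, and 12 were higher by at least 2-fold. Idi1, which isomerises isopentenyl diphosphate, read 11.05, 11.02 and 11.03 on the S42A arrays, against 8.76, 8.45 and 8.86 on the Tw1KD arrays, a difference of 2.34 ± 0.081, adjusted p = 1.2e-11, and its second probe set differed by 2.39. Cyp51, which demethylates lanosterol, read 10.15, 10.22 and 10.23 on the S42A arrays, against 8.16, 7.66 and 8.12 on the Tw1KD arrays, a difference of 2.22 ± 0.10, adjusted p = 1.4e-10. Hsd17b7, a sterol reductase, and Lss, which closes the sterol rings, were higher by 2.23 ± 0.053 and 1.50 ± 0.052 (adjusted p = 3.1e-13 and 1.3e-11). The 2 members called lower were Tm7sf2, a sterol reductase with a difference of -1.59 ± 0.080, adjusted p = 7e-10, and Ebp, a sterol isomerase with -0.57 ± 0.062, adjusted p = 2.3e-06.

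Fatty acid synthesis and desaturation had 13 of 16 members called higher and 2 lower, with a median of 0.47. Elovl6, an elongase, read 11.70, 11.82 and 11.72 on the S42A arrays, against 10.00, 10.06 and 9.95 on the Tw1KD arrays, a difference of 1.74 ± 0.046, adjusted p = 7.7e-13. Fasn (fatty acid synthase) and Acss2, which makes acetyl-CoA from acetate, were higher by 1.24 ± 0.048 and 1.15 ± 0.043 (adjusted p = 4.4e-11 and 3.1e-11), while the desaturase Scd1 was lower, with a difference of -0.42 ± 0.046 (adjusted p = 2.5e-06). Sterol genes had 3 of 20 called higher and 7 lower against the wild-type Twist1 line (median -0.02), beside 20.0% of all genes each way. Against S42D they were higher in S42A cells in 17 of 20 and lower in 2, with a median of 0.62 beside 19.1% of all genes called higher.

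Mitochondrial genes were higher by small amounts. Of 19 genes of the tricarboxylic acid (TCA) cycle, 15 were called higher and 2 lower with a median of 0.29, and of 37 respiratory chain subunits, 25 were called higher and 1 lower with a median of 0.25. Idh3a, a subunit of isocitrate dehydrogenase, read 11.86, 11.82 and 11.70 on the S42A arrays, against 10.43, 10.34 and 10.60 on the Tw1KD arrays, a difference of 1.34 ± 0.067, adjusted p = 6.4e-10. Ndufa4 and Ndufa1, respiratory chain subunits, were higher by 1.22 ± 0.065 and 1.19 ± 0.10, and Ndufb8 was the subunit called lower, with a difference of -0.32 ± 0.071 (adjusted p = 1.4e-09, 1.3e-07 and 0.002). Relative to the wild-type Twist1 line, 13 TCA cycle genes were higher and none lower, and 19 respiratory chain subunits were higher and 4 lower, with medians of 0.23 and 0.15 (20.0% of all genes were called each way). Against S42D these counts were 12 higher and 1 lower for the TCA cycle (median 0.14) and 25 higher and 2 lower for the respiratory chain (median 0.21), beside 19.1% and 17.1% of all genes. The lower calls of these lists against Tw1KD cells are few and move with the processing: the 2 of the TCA cycle were 1 with median centring or the 2 lines alone, and the 1 of the respiratory chain was 2 without S42A replicate 3 and 5 with array weights.

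Ppargc1a, the PGC-1 alpha coactivator known for driving mitochondrial gene expression, read 11.27, 11.30 and 11.25 on the S42A arrays, against 7.30, 7.19 and 7.19 on the Tw1KD arrays, a difference of 4.05 ± 0.12, adjusted p = 1.7e-12. Its second probe set differed by 4.31. The level was 5.51 ± 0.26 in the wild-type Twist1 line, 8.93 ± 0.069 in S42D cells and 5.53 ± 0.21 in parental cells, so that S42A cells were the highest of the 5 lines. The difference was 5.76 ± 0.12, adjusted p = 1.2e-13 against the wild-type line and 2.34 ± 0.12, adjusted p = 9.8e-10 against S42D. Of the 17 genes in the list of PGC-1 coactivators and their partners, Ppargc1a included, 4 were called higher and 4 lower, with a median of 0.10. These shares are near those of all genes, 22.8% called higher and 19.7% lower, and with each array centred on its median 2 were called lower. Fatty acid oxidation was mixed at 8 higher and 4 lower of 19, with Hadhb, of the trifunctional protein, higher by 1.49 ± 0.093 and Cpt1a, the entry step, lower, with a difference of -1.12 ± 0.050 (adjusted p = 7.6e-09 and 1.9e-10).

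**Figure D4:**
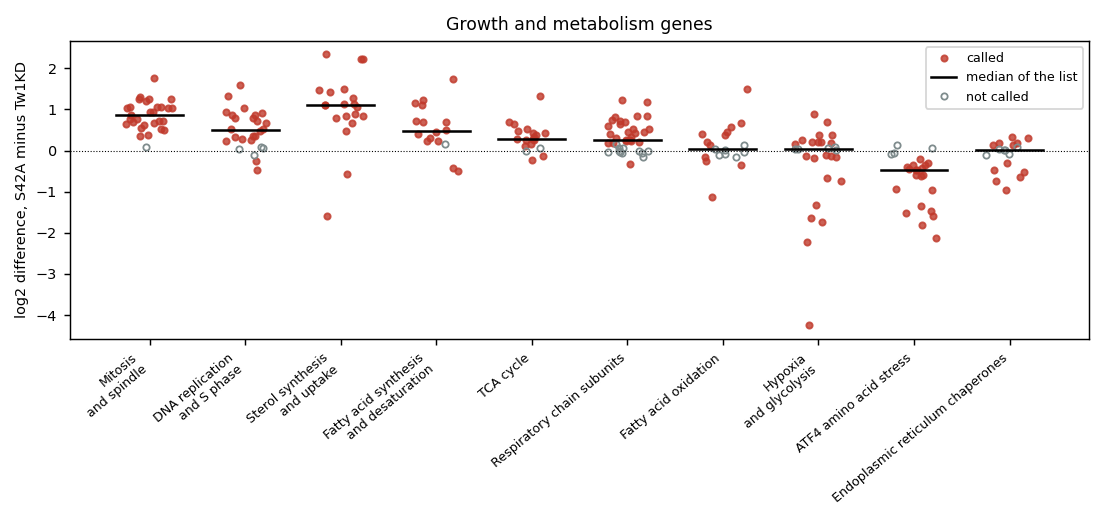
Differences between S42A and Tw1KD cells (log2, S42A minus Tw1KD) for members of 10 lists of growth and metabolism; filled points were called, open points were not, and the bar is the median of the list. Mitosis and sterol synthesis sit highest, with medians of 0.87 and 1.11, amino acid stress sits lowest at -0.48, and Aldoc at -4.25 is the lowest point.

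The genes that the factor Atf4 is known to switch on when amino acids are scarce were lower in S42A cells. Of 24, 20 were called lower and none higher, with a median of -0.48. Nupr1, a stress-induced nuclear protein, read 9.44, 9.45 and 9.59 on the S42A arrays, against 11.66, 11.58 and 11.63 on the Tw1KD arrays, a difference of -2.13 ± 0.045, adjusted p = 1.1e-13. Chac1, which breaks down glutathione, read 9.83, 9.96 and 10.04 on the S42A arrays, against 11.73, 11.78 and 11.73 on the Tw1KD arrays, a difference of -1.80 ± 0.050, adjusted p = 1.4e-12. Pck2, the mitochondrial phosphoenolpyruvate carboxykinase, and Trib3, a pseudokinase, were lower, with differences of -1.60 ± 0.043 and -1.51 ± 0.050 (adjusted p = 9.7e-13 and 8.9e-12). Against the wild-type Twist1 line 17 of the 24 were lower and 3 higher (median -0.24), against S42D 12 were lower and 3 higher (median -0.19), and against parental cells 16 were lower and 1 higher (median -0.22). Over all genes 20.0%, 17.1% and 17.7% were called lower in these 3 comparisons. Endoplasmic reticulum chaperones, the targets of another branch of the stress response, were split at 6 higher and 6 lower of 18.

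Hypoxia and glycolysis genes were split at 10 higher and 12 lower of 27, with a median of 0.03, and the widest differences were on the lower side. Aldoc, an aldolase isoform, read 6.67, 6.77 and 6.37 on the S42A arrays, against 10.90, 10.77 and 10.88 on the Tw1KD arrays, a difference of -4.25 ± 0.079, adjusted p = 2.9e-14. Pfkfb4, which sets the glycolytic rate, Car9, a carbonic anhydrase, and Adm (adrenomedullin) were lower, with differences of -2.22 ± 0.059, -1.74 ± 0.076 and -1.65 ± 0.12 (adjusted p = 9.2e-13, 1.7e-10 and 3.3e-08). Pfkfb3 and Pfkp were higher by 0.89 ± 0.076 and 0.71 ± 0.041 (adjusted p = 2.1e-07 and 3e-09). With each array centred on its median, 7 members rather than 12 were called lower.

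Creatine and branched-chain amino acid genes were mixed as a list, with 6 of 19 higher and 7 lower, but held wide falls. Bckdhb, a subunit of the branched-chain keto acid dehydrogenase, read 5.83, 5.57 and 5.25 on the S42A arrays, against 10.31, 10.17 and 10.32 on the Tw1KD arrays, a difference of -4.72 ± 0.11, adjusted p = 2.9e-13. Gatm, the first enzyme of creatine synthesis, read 5.51, 5.32 and 5.58 on the S42A arrays, against 9.67, 9.20 and 9.62 on the Tw1KD arrays, a difference of -4.03 ± 0.11, adjusted p = 1.7e-12. Dbt, another subunit of the same dehydrogenase, was lower, with a difference of -2.12 ± 0.051 (adjusted p = 3.1e-13). Bckdhb was high in all 4 other lines, with means of 9.89 in the wild-type Twist1 line, 9.94 in S42D and 10.04 in parental cells. Gatm was at 10.41 ± 0.041 in the wild-type line but dim in S42D cells too, at 5.54 ± 0.18.

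Several other single genes were low in S42A cells and high in every other line. Hexa, a subunit of the lysosomal hexosaminidase, read 6.16, 5.46 and 5.52 on the S42A arrays, against 10.68, 10.58 and 10.60 on the Tw1KD arrays, a difference of -4.90 ± 0.13, adjusted p = 9.5e-13. It was at 10.04 ± 0.036 in the wild-type Twist1 line, 10.04 ± 0.080 in S42D and 9.80 ± 0.030 in parental cells. Atp2c2, a calcium and manganese pump of the secretory pathway, read 6.57, 6.53 and 6.40 on the S42A arrays, against 10.70, 10.66 and 10.77 on the Tw1KD arrays, a difference of -4.21 ± 0.049, adjusted p = 7.8e-16. Rem2, a small GTPase, differed by -3.26 ± 0.081, Slc18b1, a vesicular polyamine transporter, by -3.57 ± 0.10 and Parvb, an actin-binding partner of integrin-linked kinase, by -3.07 ± 0.051 (adjusted p = 4.1e-13, 1.7e-12 and 9.8e-15). Against the wild-type line these 3 differed by -2.82 ± 0.081, -2.72 ± 0.10 and -4.07 ± 0.051 (adjusted p = 3.8e-12, 5.8e-11 and 4.6e-15), and against S42D by -2.74 ± 0.081, -3.21 ± 0.10 and -4.02 ± 0.051 (adjusted p = 3.9e-12, 8.1e-12 and 2.6e-15). The kinase gene Lrrk2 showed the same order, with a difference of -3.19 ± 0.058 from Tw1KD cells, and its second probe set was dim in both lines.

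Other genes were higher in S42A cells than in every other line. Cask, a membrane scaffold of the guanylate kinase family, read 9.56, 9.80 and 9.62 on the S42A arrays, against 6.04, 5.82 and 6.13 on the Tw1KD arrays, a difference of 3.67 ± 0.10, adjusted p = 1.5e-12. It was at 5.0 ± 0.048 in the wild-type Twist1 line, 5.18 ± 0.20 in S42D and 7.10 ± 0.12 in parental cells. Map2, a microtubule-associated protein, read 10.10, 10.10 and 10.19 on the S42A arrays, against 7.57, 7.37 and 7.46 on the Tw1KD arrays, a difference of 2.66 ± 0.058, adjusted p = 1.3e-13. Mboat2, a lysophospholipid acyltransferase, had a difference of 2.27 ± 0.10, adjusted p = 2.1e-10. Cask, Map2 and Mboat2 were each higher in S42A than in the wild-type line, by 4.67 ± 0.10, 2.64 ± 0.058 and 3.17 ± 0.10 (adjusted p = 2.6e-13, 2.6e-13 and 1.2e-11).

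**Figure D5:**
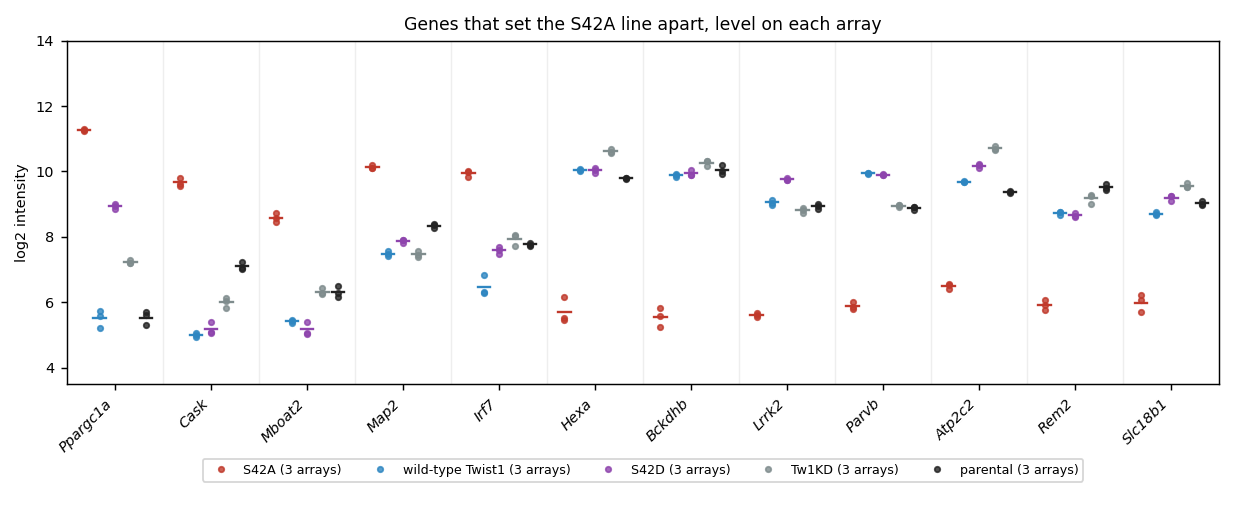
Level of 12 genes (log2 intensity) on each array of the S42A (red), wild-type Twist1 (blue), S42D (purple), Tw1KD (grey) and parental (black) lines, from left to right for each gene; points are arrays and bars are means over 3. S42A cells are the highest line for the first 5 genes, from Ppargc1a to Irf7, and the lowest for the 7 from Hexa to Slc18b1.

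Outside the lists, wide rises were also seen for F13a1, the A chain of coagulation factor XIII, with 10.95, 10.94 and 10.96 on the S42A arrays, against 5.67, 5.92 and 6.05 on the Tw1KD arrays, and Lipg, endothelial lipase, with 10.52, 10.64 and 10.72 on the S42A arrays, against 7.03, 6.81 and 7.22 on the Tw1KD arrays. Their differences were 5.07 ± 0.074, adjusted p = 3.2e-15 and 3.61 ± 0.094, adjusted p = 7.6e-13. Trim30a, an interferon-induced protein of a family with close copies in the mouse, differed by 4.18 ± 0.089, Gper1, a membrane receptor for oestrogen, by 3.19 ± 0.048, Sulf2, which trims heparan sulphate, by 3.19 ± 0.069 and Rgs2, a regulator of G protein signalling, by 3.16 ± 0.089 (adjusted p between 3.6e-15 and 1.6e-12). Every S42A array was above every Tw1KD array in these 6 genes.

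Among the widest falls outside the lists, Mpzl2, an epithelial adhesion protein, read 5.68, 5.58 and 5.46 on the S42A arrays, against 10.96, 11.01 and 11.21 on the Tw1KD arrays, a difference of -5.48 ± 0.11, adjusted p = 5.5e-14. Lilr4b, an inhibitory receptor with close copies in the mouse, read 4.90, 4.76 and 5.17 on the S42A arrays, against 10.37, 10.31 and 10.26 on the Tw1KD arrays, a difference of -5.37 ± 0.14, adjusted p = 9.5e-13. Dpep2, a membrane dipeptidase, Gipc2, a PDZ-domain protein, and Samd12 differed by -4.39 ± 0.060, -4.41 ± 0.091 and -4.34 ± 0.068 (adjusted p = 1.8e-15, 9.1e-14 and 5.6e-15). A second, dimmer probe set of Dpep2 differed less, by -1.71. Lilr4b and Dpep2 were also low in parental cells, at 4.86 ± 0.14 for Lilr4b and at the same value of 6.13 on all 3 arrays for Dpep2.

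Some genes that were higher in the wild-type or S42D line lay within 0.2 log2 units of the Tw1KD level in S42A cells. Hsd17b11, a lipid droplet dehydrogenase, read 5.10, 4.79 and 5.06 on the S42A arrays, against 5.31, 4.83 and 5.10 on the Tw1KD arrays, and was not called (difference -0.10, adjusted p = 0.51). It was at 9.80 ± 0.022 in the wild-type Twist1 line, 10.80 ± 0.029 in S42D and 10.56 ± 0.046 in parental cells, so S42A cells were lower than the wild-type line, with a difference of -4.82 ± 0.10, adjusted p = 1.4e-13. The difference from Tw1KD cells was called with array weights, at -0.40, and without Tw1KD replicate 2, at -0.22. Gpm6b, a membrane proteolipid, was at 6.27 ± 0.13 in S42A cells, 10.23 ± 0.063 in the wild-type line and 6.13 ± 0.074 in Tw1KD cells, with a difference of -3.96 ± 0.063, adjusted p = 1.7e-14 against the wild-type line. Its difference from Tw1KD cells was 0.15 and not called, but was called with array weights (0.21), median centring (0.20), quantile normalization (0.22), without S42A replicate 3 (0.22) and without Tw1KD replicate 2 (0.19). Mest, an imprinted gene of the hydrolase family, was at 5.62 ± 0.11 in S42A cells, 9.13 ± 0.058 in the wild-type line and 5.78 ± 0.012 in Tw1KD cells, with a difference of -3.51 ± 0.063, adjusted p = 6.2e-14 against the wild-type line. From Tw1KD cells it differed by -0.16, which was not called except without S42A replicate 2 (-0.19) and without the dimmest 25% of genes. Angptl7, an angiopoietin-like secreted protein, was at 5.71 ± 0.073 in S42A cells, 11.07 ± 0.073 in S42D and 5.67 ± 0.10 in Tw1KD cells, with a difference of -5.36 ± 0.086, adjusted p = 9.8e-15 against S42D.

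Of 11 genes often used as references, 6 were called higher and none lower. Gusb and Tfrc were higher by 1.27 ± 0.041 and 0.94 ± 0.046 (adjusted p = 7.3e-12 and 5.2e-10), and the others differed by less than 0.3 log2 units, with Actb at 0.10 and Rplp0 at -0.11.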

How the data were processed

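Transcript levels were measured on 15 arrays of whole-transcript probe sets, 3 for each of 5 lines. RNA was extracted with a Qiagen RNeasy kit and 100 ng were labelled with an Ambion kit, per the labels' protocols. The values the authors deposited are log2 intensities, 1 per probe set, a unit read from the values themselves. R 2.10.0 and the affy package are named, per the submitters' processing notes, with no role. Background correction, normalization and summary over probes are not given in the sources used here. Array medians lay between 6.57 and 6.72, which does not show whether the arrays were scaled to each other. Such scaling would remove a change common to all transcripts. Precision is limited by there being 3 arrays per line.

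Of 34760 probe sets, 21640 carried 1 gene symbol, 1321 several and 11799 none. Symbols were updated by gene number to the mouse table of GRCm38.p6 (21553 matched). A gene was read from its brightest probe set with 1 symbol, giving 19937 genes, 954 of them with more than 1 probe set. All 15 arrays entered 1 fit of 5 line means (limma 3.58.1, R 4.3.3), with no filter on dim genes, and 2-sided p-values were adjusted by Benjamini-Hochberg over all genes in each of 4 comparisons: S42A against Tw1KD, wild-type Twist1, S42D and parental cells. The test was checked on simulated data.

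The 49 gene lists hold 925 entries, of which 868 were measured. The members and lists were chosen with earlier results of these data known. Genes are named by rule: the 15 largest called rises and falls without overlap, the 4 largest called rises and falls of each list, every member of lists of 13 or fewer entries, some fixed genes, and the 8 largest calls each way against the wild-type and S42D lines or apart from all. Genes with predicted names were passed over in the naming. Cell type markers were also named. Motifs were searched in RefSeq promoter windows, which 15613 measured genes had. Alternatives were the 2 lines alone, a replicate block, median centring, quantile normalization, no dim genes, mean or all probe sets, array weights, another variance prior and each array left out.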

Additional observations from a re-analysis of the deposited data

Results flagged for a closer look

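The genes below moved by at least 2-fold in opposite directions from Tw1KD cells in the S42A line and in another returned line. They were sought among the 394 named genes only, and a called difference between the returned lines was part of the rule. Against the wild-type Twist1 line, Xlr, an X-linked gene with close copies, was 6.20 log2 units higher in S42A cells, at 10.40 in S42A and 4.20 in wild-type cells. Ppargc1a was 5.76 higher, Itga8 4.91, Cask 4.67, Samd9l 4.05, Spry1 3.83, Sp100 3.75, Usp18 3.63, Irf7 3.46, Otop1 3.22 and Edil3 3.12, while Parvb differed by -4.07 (each S42A minus wild type). Samd9l, Sp100, Usp18 and Irf7 are known as interferon-induced genes. Spry1 limits ERK signalling and Itga8 is an integrin chain.

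Against the S42D line, Lurap1l was 4.05 higher in S42A cells, Trp53i11 3.91, Mboat2 3.42, Otop1 3.31 and Edil3 3.16. Sema7a differed by -5.39, at 6.54 in S42A and 11.94 in S42D cells. For Gstm5 the difference was -4.90 and for Slc36a4 -4.57 (S42A minus S42D). Gstm5 belongs to a family of close relatives that its probe set may share. An adjusted p under 0.05 in limma was required of each of these differences, so it adds no support to them.

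Genes that differed from Tw1KD, wild-type Twist1 and S42D cells alike are given by the difference between S42A and the wild-type line. Ddx60 was higher by 3.14, Cmpk2 by 3.12, Ifit1 by 2.66 and Map2 by 2.64. The difference was -4.34 for Bckdhb, -4.33 for Hexa, -3.44 for Lrrk2, -3.19 for Atp2c2, -2.82 for Rem2 and -2.72 for Slc18b1.

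Probe sets without a single gene symbol stayed outside the main test. Of 1321 with several symbols, 459 were called between S42A and Tw1KD cells, 221 higher and 238 lower. Of 11799 with no symbol, 2719 were called, 910 higher and 1809 lower, and 437 of them differed by at least 2-fold.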

How the results depend on the processing

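Calls between S42A and Tw1KD cells numbered 8470 and stayed between 7384 (only the 2 lines compared) and 10643 (array weights) under the alternatives that kept all arrays. Each of these shared from 7307 to 8393 genes with the 8470. Leaving out 1 array gave 7838 to 8458 calls. With each array centred on its median, 63.1% of calls were on the higher side beside 53.6%, and in that setting 3 rather than 5 class I antigen presentation genes and 7 rather than 12 hypoxia and glycolysis genes were called lower. The count of macrophage and leukocyte markers called higher was 1 rather than 2 without the dimmest 25% of genes. It ranged from 1 to 2 when 1 array was left out, with 1 without Tw1KD replicate 1, where Cd53 was not called at 0.25. Among the less frequent direction of a list, without S42A replicate 1 the genes called lower numbered 2 rather than 1 for the mesenchymal, endothelial and angiopoietin and VEGF lists and 1 rather than 0 for fibroblast markers, and without Tw1KD replicate 2 they numbered 2 rather than 1 for leukocyte markers. Chemokines had 1 rather than 2 lower with median centring, the adherens junction list 1 rather than 2 higher with the 2 lines alone, and interleukins 8 rather than 5 higher with array weights. With array weights 1 desmosome gene and 2 tight junction genes were called higher, rather than 0 and 1. The class I antigen presentation list went from 3 higher and 5 lower to 5 higher and 3 lower with median centring. A reversal was counted only where a gene was called in the main fit or in the alternative. By that rule no direction was reversed among the 394 named genes. Of these genes, 40 changed call under at least 1 alternative, among them Gpm6b, Hsd17b11 and Mest, which were called in some settings, and the cause was not tested. With a replicate block 8319 genes were called, 8241 of them also without it. The replicate numbers did not pair the samples: deviations of same-numbered S42A and Tw1KD arrays correlated at -0.11, -0.23 and 0.30, and 1 of 3 S42A arrays correlated best with its own number. The small number of arrays and the dim levels of many genes limit what can be seen, and probe sets that share copies of a gene cannot be told apart.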
